A study of Mus musculus with 12 samples.

Results

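CXC chemokines are small secreted proteins that guide leukocytes, and 10 genes of this family were followed here by name: *Cxcl1*, *Cxcl2*, *Cxcl3*, *Cxcl5*, *Cxcl9*, *Cxcl10*, *Cxcl11*, *Cxcl14*, *Cxcl16* and *Pf4*, out of 55487 gene models in the table. RNA was sequenced from bone-marrow-derived macrophages (BMDMs) of C57BL/6 mice aged 8 to 12 weeks, either wild type (WT) or homozygous for a floxed *Rasgef1b* allele with a CMV-Cre transgene (Rasgef1b-fl/fl;CMVcre, called KO). Cells of each genotype were left untreated or received lipopolysaccharide (LPS), a bacterial cell wall component sensed by TLR4, at 100 ng/ml for 4 h. Each of the 4 groups holds 3 libraries, 12 in all. The CMV promoter drives Cre in all tissues, so the deletion is not limited to macrophages, and no group carries the floxed allele without Cre or Cre without the floxed allele. *Rasgef1b* encodes an LPS-inducible exchange factor for Ras-type GTPases. The study asked how its deletion changes gene expression at rest and after LPS. The Cre-deleted part is a pair of exons, so reads from the rest of the gene still count. The KO libraries nevertheless had fewer *Rasgef1b* reads, with 695, 545 and 587 normalized counts against 2171, 2001 and 2043 in untreated cells and 3775, 4192 and 3618 against 12554, 11855 and 11844 after LPS (log2 differences of -1.77 and -1.65, both called).

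The family falls into classes by structure and control. The ELR ligands *Cxcl1*, *Cxcl2*, *Cxcl3* and *Cxcl5*, named for a short motif ahead of the first cysteines, bind *Cxcr2* and attract neutrophils, and their genes are known targets of NF-kB, the factor freed by TLR signalling. *Cxcl9*, *Cxcl10* and *Cxcl11* lack this motif, bind *Cxcr3* on activated T cells and NK cells, and are known targets of the interferon pathway, in which TLR4 signals through TRIF and IRF3 to interferon beta, which then acts back on the cell through its receptor. The other members are *Cxcl14*, which is expressed by many epithelia at rest, *Cxcl16*, a membrane-bound ligand of *Cxcr6*, and *Pf4*, or platelet factor 4.

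Of the 10 members, 8 lie on chromosome 5 of GRCm38. *Cxcl5* (90759360 to 90761624), *Pf4* (90772435 to 90773383), *Cxcl3* (90786103 to 90789600), *Cxcl1* (90891241 to 90893115) and *Cxcl2* (90903871 to 90905938) share the forward strand within 147 kb. *Cxcl9* (92321347 to 92328079), *Cxcl10* (92346638 to 92348889) and *Cxcl11* (92359544 to 92365485) lie on the reverse strand within 44.1 kb, 1.42 Mb from the first cluster. *Rasgef1b* lies on the same chromosome, 6.85 to 8.46 Mb away from these members. *Cxcl14* is on chromosome 13 (56288643 to 56296551) and *Cxcl16* on chromosome 11 (70453983 to 70459984), both on the reverse strand. GENCODE lists *Cxcl11* as a polymorphic pseudogene, since the C57BL/6 allele carries a frameshift, and its values therefore describe a transcript and no full-length protein.

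RefSeq promoter windows of GRCm38.p6 were at hand for 7 of the 10 members. They are shown for the ELR and interferon-induced ligands whose LPS responses are compared below, from position -250 to -31 relative to the start site, 220 bases each and in the direction of transcription. Capitals mark matches, on either strand, to the kappa B consensus bound by NF-kB or to an interferon response element core (GAAANNGAAA).
*Cxcl1* (chr5:90890995-90891214, forward strand): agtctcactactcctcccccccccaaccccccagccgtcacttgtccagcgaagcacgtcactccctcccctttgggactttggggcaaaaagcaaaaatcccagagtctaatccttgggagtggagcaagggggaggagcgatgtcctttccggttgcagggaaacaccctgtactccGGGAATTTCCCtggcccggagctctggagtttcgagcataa
*Cxcl2* (chr5:90903649-90903868, forward strand): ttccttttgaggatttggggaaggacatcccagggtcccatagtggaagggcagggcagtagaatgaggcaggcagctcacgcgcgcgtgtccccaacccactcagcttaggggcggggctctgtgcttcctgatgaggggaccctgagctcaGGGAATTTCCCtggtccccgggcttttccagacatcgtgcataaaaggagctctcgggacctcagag
*Cxcl3* (chr5:90785851-90786070, forward strand): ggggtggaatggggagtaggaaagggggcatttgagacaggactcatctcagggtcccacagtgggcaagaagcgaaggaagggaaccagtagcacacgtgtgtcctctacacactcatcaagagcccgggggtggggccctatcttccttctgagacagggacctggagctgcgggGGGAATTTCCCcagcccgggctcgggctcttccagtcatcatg
*Cxcl9* (chr5:92328110-92328329, reverse strand): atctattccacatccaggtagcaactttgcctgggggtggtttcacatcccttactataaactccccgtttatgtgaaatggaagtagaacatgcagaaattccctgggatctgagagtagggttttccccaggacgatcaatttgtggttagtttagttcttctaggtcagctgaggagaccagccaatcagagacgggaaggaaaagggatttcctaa
*Cxcl10* (chr5:92348920-92349139, reverse strand): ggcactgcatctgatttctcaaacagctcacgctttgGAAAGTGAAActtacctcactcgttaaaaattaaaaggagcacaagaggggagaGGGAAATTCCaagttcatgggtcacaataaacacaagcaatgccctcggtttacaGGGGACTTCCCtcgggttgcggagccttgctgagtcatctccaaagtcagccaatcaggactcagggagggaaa

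All the capitals in the *Cxcl1*, *Cxcl2* and *Cxcl3* windows are one run, GGGAATTTCCC, which is the longest stretch common to the 3 windows and holds overlapping kappa B matches of both strands. It begins at -71 in *Cxcl1*, at -97 in *Cxcl2* and at -73 in *Cxcl3*, and it occurs in 13 of 32851 promoter windows of this length (0.0396%). Those 13 include the 3 windows from which the run was picked. The *Cxcl10* window holds the interferon response element core at -213, a kappa B match at -159 and overlapping kappa B matches from -104. A kappa B match is found in 6.34% of all windows and the interferon response element core in 2.63%. Neither letter pattern occurs in the *Cxcl9* window. Among the other members with a window, *Pf4* has no match, and *Cxcl14* has an interferon response element core at -172. A match here is a description of letters, not of binding.

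The libraries hold 19316691 to 24977356 reads in genes. After the authors' scaling, 1 read stands for 0.660 to 0.855 normalized counts in untreated and for 1.21 to 1.41 in LPS-treated libraries. Macrophage markers (*Adgre1*, *Itgam*, *Csf1r* and 6 others) summed to 239986 to 419750 normalized counts per library. Replicate 1 of WT and replicate 2 of KO, untreated and LPS-treated alike, are the 4 libraries with *Xist*, at 15146 to 18652 normalized counts against 5.73 to 28.7 in the other 8; *Xist* is transcribed in female cells, the labels give no sex, and each group holds 1 such library. Pairs of replicates differed by more than counting error throughout. Untreated KO replicate 2 stood apart, since chi-square divided by its degrees of freedom came to 140 and 125 against the other KO replicates and to 4.50 to 24.1 in all other pairs. The study lists its lowest share of uniquely mapped reads for the second untreated knock-out sample. Since this replicate is also 1 of the 4 libraries with *Xist*, fits without those libraries drop it too, and the 2 cannot be told apart. All these are bulk samples, in which fewer cells making a transcript and less transcript per cell cannot be told apart.

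LPS raised 7 of the 9 members that could be tested in each genotype, and no member was called lower (limma, adjusted p under 0.05 and at least a 2-fold change, among genes with a mean of at least 10 normalized counts). Of all genes tested, 17.1% were called higher in WT and 17.3% in KO macrophages. At 4 h, the only time measured after LPS, the interferon-induced ligands had risen by far more than the ELR ligands. *Cxcl16* rose less than either class, *Pf4* moved by less than 2-fold and *Cxcl14* was not called. *Cxcl5* had too few reads for a test. *Cxcl1*, *Cxcl3* and *Cxcl11* had untreated means below 10 in both genotypes and passed the count limit only through their LPS-treated libraries. The count of 7 of 9 is therefore partly set by that limit.

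**Figure D1:**
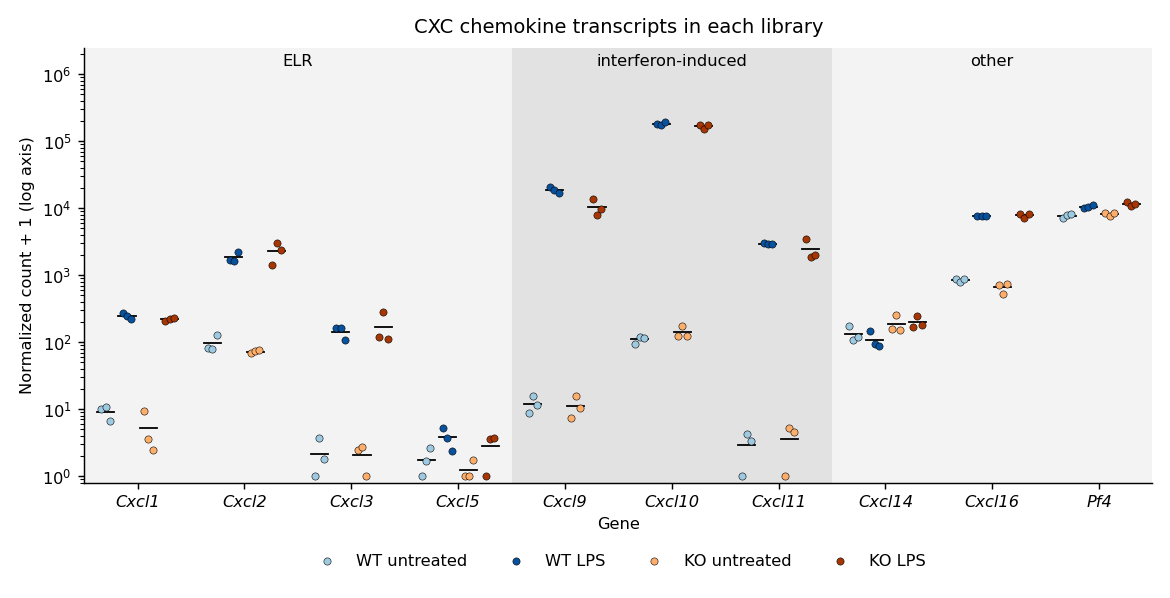
Normalized counts plus 1 of the 10 CXC chemokine genes (log axis), with 1 point per library, 3 libraries per group and a bar at the mean. LPS-treated points (dark) lie above untreated points (light) without overlap for *Cxcl1*, *Cxcl2*, *Cxcl3*, *Cxcl9*, *Cxcl10*, *Cxcl11*, *Cxcl16* and *Pf4*, and *Cxcl10* reached 152759 to 192406 normalized counts.

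*Cxcl10*, the ligand of *Cxcr3* known as IP-10, had 94.1, 117 and 115 normalized counts in the untreated WT libraries and 179125, 177294 and 192406 after LPS. In KO macrophages it had 123, 172 and 121 at rest and 175767, 152759 and 172147 after LPS. Every LPS-treated library lay far above every untreated one. The log2 fold change was 10.71 in WT (SE 0.085, adjusted p = 2.30e-12 by limma) and 10.24 in KO (SE 0.13, adjusted p = 2.90e-10). It ranked at position 5 among 12656 genes by fold change in WT and at position 5 among 12732 in KO. Of all reads in genes, 0.666% came from *Cxcl10* in WT and 0.620% in KO after LPS.

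*Cxcl9*, the ligand of *Cxcr3* known as MIG, had 7.61, 14.5 and 10.4 normalized counts in untreated WT and 20376, 18686 and 16884 after LPS. In KO macrophages the values were 6.35, 14.5 and 9.31 at rest and 13727, 7959 and 9779.5 after LPS. All 3 KO libraries thus stayed below the lowest WT library after LPS, while the untreated groups overlapped. Its log2 fold change was 10.66 (SE 0.18) in WT, at position 6 of all genes tested, and 9.92 (SE 0.28) in KO, at position 8.

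*Cxcl11*, the third ligand of *Cxcr3*, started from 0.00, 3.30 and 2.39 normalized counts in WT, or 8 reads over the group, and reached 3013, 2918 and 2877. In KO it went from 0.00, 4.28 and 3.58, or 10 reads, to 3496, 1862 and 2013. The spread after LPS was wide in KO and narrow in WT. The log2 fold changes of 10.23 (SE 0.45) and 9.67 (SE 0.58) rest on few untreated reads and carry the largest errors of this class. An antisense gene model that overlaps *Cxcl11*, *Gm2673*, had no read in any library.

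Among the ELR ligands *Cxcl2*, or MIP-2, was the most abundant, with 81.0, 77.2 and 127 normalized counts in untreated WT and 1697, 1628 and 2202 after LPS. KO libraries had 67.0, 71.8 and 75.2 at rest and 1439, 3052 and 2369.7 after LPS. The log2 fold changes were 4.28 (SE 0.19) in WT and 4.92 (SE 0.23) in KO. *Cxcl1*, or KC, went from 9.00, 9.90 and 5.58 to 276, 246 and 218 in WT and from 8.46, 2.57 and 1.43 to 207, 218 and 226 in KO. Its log2 fold changes were 4.78 (SE 0.23) and 5.65 (SE 0.45). Both genes separated the LPS-treated from the untreated libraries completely.

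*Cxcl3* was nearly silent at rest, with 0.00, 2.64 and 0.80 normalized counts in WT (5 reads in all) and 1.41, 1.71 and 0.00 in KO (4 reads). After LPS it had 159, 159.7 and 106 normalized counts in WT and 117, 277 and 112 in KO, with log2 fold changes of 6.23 (SE 0.46) and 6.37 (SE 0.50). These values depend on the pseudocount of 1, since the untreated counts lie near it. *Cxcl5*, best known from epithelial cells, had 3 reads over the untreated and 6 over the LPS-treated WT libraries, a ratio of normalized counts of 3.90 (exact 95% counting interval 0.833 to 24.1). In KO it had 1 and 4 reads, a ratio of 6.85 (0.678 to 337). The intervals include 1 and cover counting error only, so no change of *Cxcl5* was detectable at this depth.

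**Figure D2:**
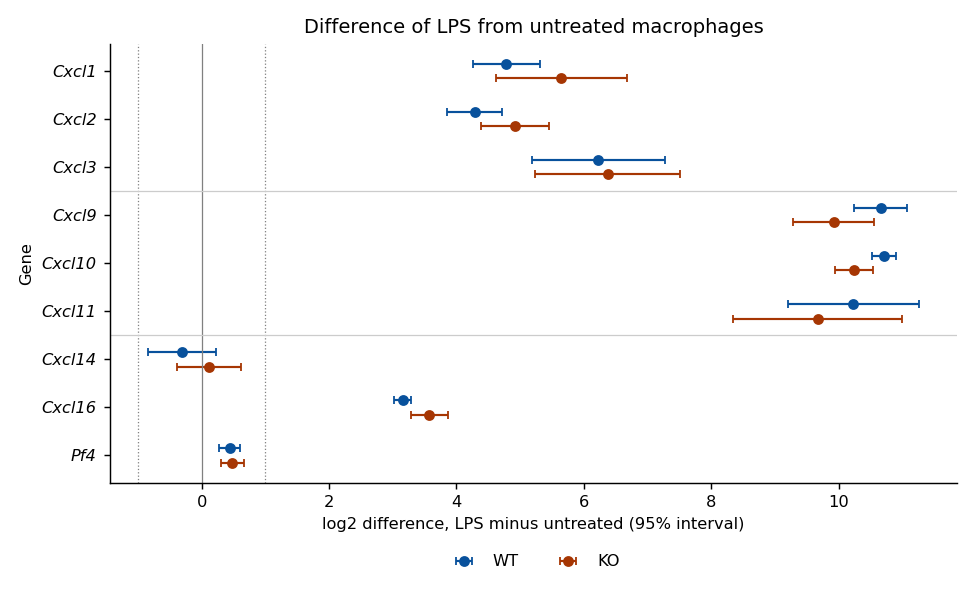
Log2 difference between LPS-treated and untreated macrophages (x axis) for the 9 testable genes (y axis), in WT (blue) and KO (brown), with 95% intervals from limma and dotted lines at a 2-fold change. The interferon-induced genes lie between 9.67 and 10.71, the ELR genes between 4.28 and 6.37, and the intervals of the classes do not meet.

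Side by side, the 3 tested ELR ligands had a median log2 fold change of 4.78 in WT and 5.65 in KO macrophages, and the 3 interferon-induced ligands had 10.66 and 9.92. The median over all tested genes was -0.02 in WT and -0.01 in KO. The lowest interferon-induced value exceeded the highest ELR value by 4.01 on the log2 scale in WT and by 3.30 in KO. Taken per replicate number, the difference of the class medians was 6.42, 5.73 and 5.48 in WT and 6.41, 3.06 and 3.35 in KO, so the classes kept their order in all pairs and the KO pairs varied more. The ELR medians leave out *Cxcl5*, which stayed below the count limit, and all these values are for 4 h of LPS. No test was run on the classes, whose members were chosen by name.

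*Cxcl16* rose from 879, 793 and 875 normalized counts to 7524, 7534 and 7629 in WT and from 712, 528 and 738 to 8104, 7033 and 8243 in KO. The log2 fold changes were 3.15 (SE 0.057) and 3.57 (SE 0.13), and the 3 LPS-treated WT libraries agree more closely than those of any other member. *Adam17*, one of the proteases that cut *Cxcl16* off the membrane, rose too, with a log2 fold change of 1.43 in WT and 1.66 in KO, while *Adam10*, the other, had -0.01 and 0.06 and was not called.

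*Pf4* is stored in platelet granules and is also made by macrophages, and it was by far the most abundant member at rest. It had 7123, 7901 and 8255 normalized counts in untreated WT and 9947, 10408 and 11195 after LPS, with a log2 fold change of 0.44 (SE 0.071, adjusted p = 0.000359 by limma), below the 2-fold threshold. In KO it had 8613, 7650.2 and 8418 at rest and 12349, 10782 and 11391 after LPS, with a log2 fold change of 0.48 (SE 0.078, adjusted p = 0.000484). The direction turns when libraries are scaled to their total reads, with log2 fold changes of -0.29 in WT and -0.20 in KO. On that scale *Pf4* took 0.0468% of the reads in untreated and 0.0383% in LPS-treated WT libraries. That scaling moved the median log2 fold change of all genes to -0.74 in WT and -0.69 in KO and the calls in WT from 2158 higher and 2136 lower to 1379 higher and 4783 lower. Platelet genes were near the floor. The sum of 9 megakaryocyte and platelet markers was 99.0 to 134 normalized counts in untreated WT, 108 to 118 in untreated KO, 52.1 to 64.1 in WT and 66.7 to 78.6 in KO after LPS, and *Gp1bb*, a subunit of the platelet von Willebrand factor receptor, had no read in any library.

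*Cxcl14* had 172, 108 and 116 normalized counts in untreated WT and 144, 91.4 and 86.2 after LPS, a log2 fold change of -0.31 (SE 0.24). In KO it had 157, 249.7 and 148 at rest and 168, 247 and 179.7 after LPS, a log2 fold change of 0.12 (SE 0.22). Treated and untreated libraries overlapped in both genotypes, and the test called neither (adjusted p = 0.266 and 0.645 by limma). Scaled to total reads, the values were -1.03 in WT, which passed both thresholds, and -0.56 in KO.

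Expressed per kb of annotated exon, which allows a rough comparison of genes, *Pf4* led at rest with a mean level of 10762 normalized counts per kb in WT and 11411 in KO. *Cxcl16* followed with 281 and 218, *Cxcl14* with 72.3 and 101, *Cxcl10* with 48.3 and 61.6, and *Cxcl2* with 46.0 and 34.5, where *Cxcl10* and *Cxcl2* overlapped in WT. *Cxcl1* and *Cxcl9* overlapped below them, and *Cxcl11*, *Cxcl3* and *Cxcl5* overlapped at under 1 per kb. After LPS the order became *Cxcl10* (81235 per kb in WT, 74108 in KO), *Pf4* (14587 and 15960), *Cxcl9* (6183 and 3478), *Cxcl16* (2503 and 2580), *Cxcl2* (891 and 1106), *Cxcl11* (774 and 648), *Cxcl1* (132 and 116), *Cxcl14* (58.6 and 109), *Cxcl3* (40.4 and 48.2) and *Cxcl5* (1.49 and 0.955). Neighbours whose libraries overlapped were *Cxcl2* and *Cxcl11* in both genotypes and, in KO, also *Cxcl9* and *Cxcl16* as well as *Cxcl1* and *Cxcl14*. With the length of the longest spliced transcript in place of all exons, *Cxcl3* and *Cxcl14* changed places after LPS, and *Cxcl10* and *Cxcl14* did so at rest. At rest *Cxcl3* also moved above *Cxcl11* in both genotypes, and *Cxcl1* above *Cxcl9* in KO. All exons together span 3498 bases in *Cxcl3* and 1875 in *Cxcl1*, against 1016 and 953 in the longest spliced transcript. The level per kb of these genes thus depends strongly on the length chosen.

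**Figure D3:**
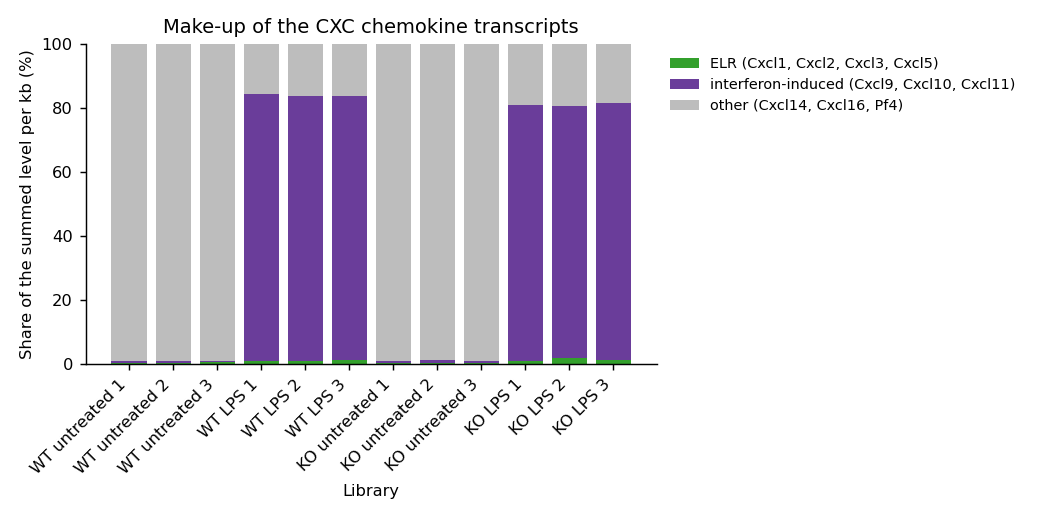
Share of the summed level per kb (y axis, percent) held by ELR ligands (green), interferon-induced ligands (purple) and other members (grey), for each of the 12 libraries (x axis). Untreated libraries are over 98.9% grey, and the purple share is 82.6% to 83.4% in WT and 78.8% to 80.1% in KO after LPS.

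The make-up of the family thus shifted with LPS from *Pf4* to *Cxcl10*. Interferon-induced ligands held 0.428% to 0.508% of the summed level per kb in untreated WT libraries and 82.6% to 83.4% after LPS. In KO they held 0.460% to 0.745% at rest and 78.8% to 80.1% after LPS, where the genotypes did not overlap. The levels of 16.1% of all genes tested did not overlap between genotypes after LPS either. The share after LPS is mostly *Cxcl10*, which was not called between genotypes. ELR ligands held 0.931% to 1.09% in WT and 0.806% to 1.86% in KO after LPS. The ratio of interferon-induced to ELR ligands after LPS was 85.8, 88.8 and 75.7 in WT and 99.4, 42.4 and 61.7 in KO, which overlap. Together the 10 members took 0.0499% to 0.0592% of the reads in untreated and 0.709% to 0.827% in LPS-treated libraries.

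Loss of *Rasgef1b* left no member called in untreated macrophages. Of the 6 members with enough counts none passed (limma; 0.193% of all genes tested were called in either direction, and 0.538% passed the adjusted p alone). Only *Cxcl16* had an unadjusted p under 0.05 by limma (1 of 6, against 1345 of 12461 genes tested), and edgeR and DESeq2 called 0 members too. *Cxcl16* came nearest, with 712, 528 and 738 normalized counts in KO below all WT libraries (793 to 879), a log2 difference of -0.38 (95% interval -0.65 to -0.10, adjusted p = 0.272). *Cxcl2* was also lower in every KO library (difference -0.38, interval -0.82 to 0.07), and *Cxcl10* was higher in every KO library (0.34, interval -0.03 to 0.70). Groups did not overlap for these 3 of the 6 members, against 16.4% of all genes tested. *Cxcl14* (0.47, interval -0.06 to 1.01), *Pf4* (0.09, interval -0.08 to 0.25) and *Cxcl9* (-0.12, interval -0.99 to 0.74) overlapped. Untreated KO replicate 2, the library that stood apart, had the lowest *Cxcl16* (528) and the highest *Cxcl10* (172) and *Cxcl14* (249.7) of its group. Without it the differences were -0.23 for *Cxcl16*, 0.17 for *Cxcl10* and 0.24 for *Cxcl14*, and without WT replicate 3 that of *Cxcl2* was -0.15. Among libraries without *Xist* they were -0.20 for *Cxcl16* and 0.07 for *Cxcl10*. *Cxcl1*, *Cxcl3*, *Cxcl5* and *Cxcl11* were below the count limit. Of these, *Cxcl1* had 35 reads over the WT and 17 over the KO group.

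**Figure D4:**
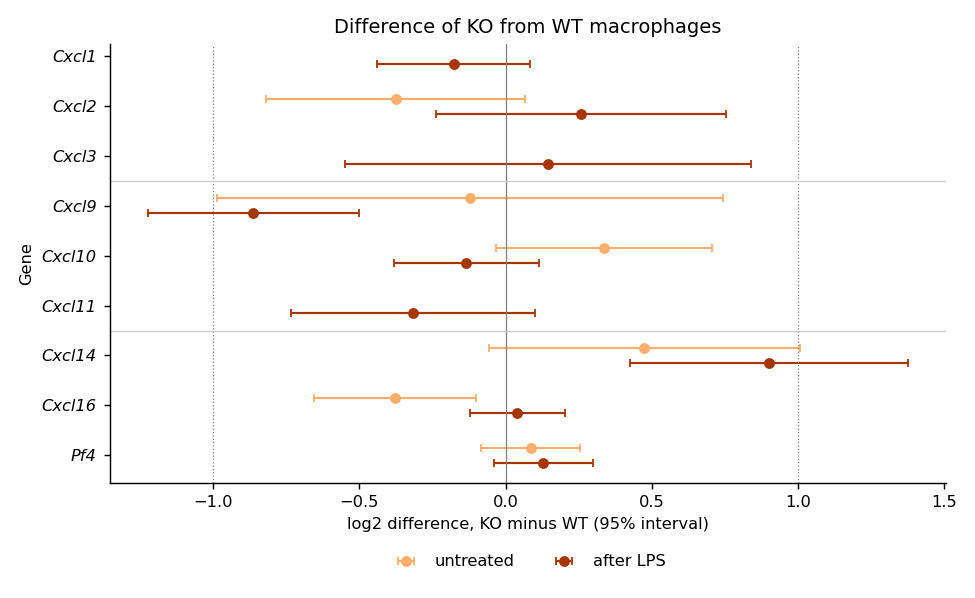
Log2 difference between KO and WT macrophages (x axis) for each testable gene (y axis), untreated (light) and after LPS (dark), with 95% intervals from limma and dotted lines at a 2-fold change. After LPS *Cxcl9* lies at -0.86 and *Cxcl14* at 0.90 with intervals clear of 0, and the other 7 intervals cross 0.

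After LPS, *Cxcl9* was the member with the smallest p between genotypes. Its mean was 18649 ± 1747 normalized counts in WT and 10489 ± 2949 in KO (SD, n = 3), a log2 difference of -0.86 (SE 0.16, 95% interval -1.22 to -0.50), or 1.82-fold lower in KO (interval 1.42 to 2.34). The adjusted p was 0.0439 by limma, so *Cxcl9* passed the test for significance and missed the 2-fold threshold. It is among the 0.816% of genes that passed the adjusted p alone, while 0 of the 9 tested members were among the 0.232% that passed both by limma, and edgeR and DESeq2 also called 0. An unadjusted p under 0.05 was found for 2 of the 9 members, *Cxcl9* and *Cxcl14*, against 1324 of 12504 genes tested. Without KO replicate 1, which had the highest KO value, the difference was -1.08 with an adjusted p of 0.00128, and *Cxcl9* was called. The adjusted p rose above 0.05 under 4 of 13 other settings, reaching 0.280 without a variance trend, and in 5 of 6 fits with 1 library left out. The settings that kept it below include a replicate block, which joins libraries by numbers that do not pair across genotypes.

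The libraries with *Xist* had the widest gap in *Cxcl9*, 20376 in WT and 7959 in KO, and those without *Xist* had 18686 and 16884 in WT and 13727 and 9779.5 in KO. The difference kept its sign within both sets. It was -0.62 among libraries without *Xist* (adjusted p = 0.218), and with a term for *Xist* the adjusted p was 0.0244.

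*Cxcl14* differed in the opposite direction. The WT libraries had 144, 91.4 and 86.2 normalized counts after LPS and the KO libraries 168, 247 and 179.7, a log2 difference of 0.90 (SE 0.21, interval 0.43 to 1.38) with a raw p of 0.00169 and an adjusted p of 0.115 by limma, which did not pass. The KO libraries were higher in both sets, at 247 against 144 with *Xist* and at 168 and 179.7 against 91.4 and 86.2 without it. With a term for *Xist*, added after the values were seen, the adjusted p was 0.00932 by limma. DESeq2 gave 0.0126, but the change stayed below 2-fold in both. The adjusted p was under 0.05 in only 3 of 13 other settings, including both of these, and in 0 of 6 fits with 1 library left out.

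The summed macrophage markers came to 365088, 379196 and 419750 normalized counts in the LPS-treated WT and 359647, 297136 and 363904 in the KO libraries. These groups do not overlap, by the narrow gap between 363904 and 365088, and 16.1% of all genes tested do not either. Of the 9 markers 0 were called by limma and 4 had an unadjusted p under 0.05, against 1324 of 12504 genes tested. The log2 differences of all 9 ran in both directions, from -0.33 to 0.24. Their part in the differences of *Cxcl9*, *Cxcl10* and *Cxcl14* was not tested.

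The other members gave no call after LPS. *Cxcl10* was lower in every KO library, by a log2 difference of -0.13 (interval -0.38 to 0.11). With *Cxcl9* and *Cxcl14* it makes 3 of 9 members whose groups did not overlap, against 16.1% of all genes tested. *Cxcl11* (-0.32, interval -0.73 to 0.10), *Cxcl1* (-0.18, interval -0.44 to 0.08), *Cxcl2* (0.26, interval -0.24 to 0.75), *Cxcl3* (0.14, interval -0.55 to 0.84), *Cxcl16* (0.04, interval -0.12 to 0.20) and *Pf4* (0.13, interval -0.04 to 0.30) overlapped. The intervals of all 9 members except *Cxcl9* and *Cxcl14* exclude a 2-fold difference between genotypes in either direction. That of *Cxcl9* reaches past a 2-fold decrease and that of *Cxcl14* past a 2-fold increase.

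The size of the LPS response was compared between genotypes with an interaction term over all 12 libraries. Of the 9 members none was called, against 0.00787% of all genes tested (1 of 12711). The response of *Cxcl10* was smaller in KO by 0.47 on the log2 scale (95% interval of the difference -0.84 to -0.10) and that of *Cxcl16* larger by 0.42 (interval 0.09 to 0.74), each with an adjusted p of 0.999 by limma. These were the 2 members with an unadjusted p under 0.05, against 537 of 12711 genes tested, and edgeR and DESeq2 called 0 members as well. For *Cxcl9* the difference was -0.74 (interval -1.55 to 0.07) and for *Cxcl1* 0.86 (interval -0.31 to 2.04). *Cxcl11* had -0.56, *Cxcl2* 0.63, *Cxcl3* 0.15, *Cxcl14* 0.43 and *Pf4* 0.04. Among libraries without *Xist* the differences were -0.0072 for *Cxcl9*, -0.16 for *Cxcl10* and 0.71 for *Cxcl11*. With 1 library left out, *Cxcl9* ranged from -1.002 to -0.46 (-0.46 without untreated KO replicate 2), *Cxcl10* from -0.56 to -0.31 (-0.31 without the same library), *Cxcl16* from 0.27 to 0.51 and *Cxcl1* from 0.45 (without untreated KO replicate 3) to 1.43 (without untreated KO replicate 1). The KO and WT responses share no libraries, but both the interaction and the comparisons after LPS use the same LPS-treated libraries.

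KO libraries also differed among themselves. After LPS, KO replicate 1 had the highest *Cxcl9* (13727), *Cxcl10* (175767) and *Cxcl11* (3496) and the lowest *Cxcl2* (1439) of its group. KO replicate 2 had the lowest *Cxcl9* (7959), *Cxcl10* (152759) and *Cxcl11* (1862) and the highest *Cxcl2* (3052) and *Cxcl3* (277). In these libraries the 9 neutrophil markers summed to 1252 in replicate 1, 424 in replicate 2 and 525 in replicate 3, and *Itgax*, the integrin CD11c, had 3015, 5641 and 4624 normalized counts. *Itgax* nearly makes up the sum of the 8 dendritic cell markers (3171, 5756 and 4724), and the small rest was highest in replicate 1. In LPS-treated WT replicates 1, 2 and 3 the neutrophil sums were 322, 487 and 725 and *Itgax* had 5024, 4229 and 3110. Unlike in KO, *Cxcl9* (20376) and *Cxcl11* (3013) were highest where the neutrophil sum was lowest and *Itgax* highest. *Cxcl10* (192406) was highest in WT replicate 3, where the neutrophil sum was highest. *Ly6g*, a defining neutrophil gene, had 0 reads in both LPS groups, and *Cxcr2* had 0 in that of KO. The other neutrophil markers had reads in both LPS groups, and all 9 had reads in both untreated groups. WT replicate 1 and KO replicate 2 are the libraries with *Xist*. In each group, untreated or LPS-treated, that library had the highest *Itgax* and the lowest neutrophil sum. These markers and *Xist* therefore cannot be told apart here. The part of these markers in the spread of the chemokines was not tested.

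**Figure D5:**
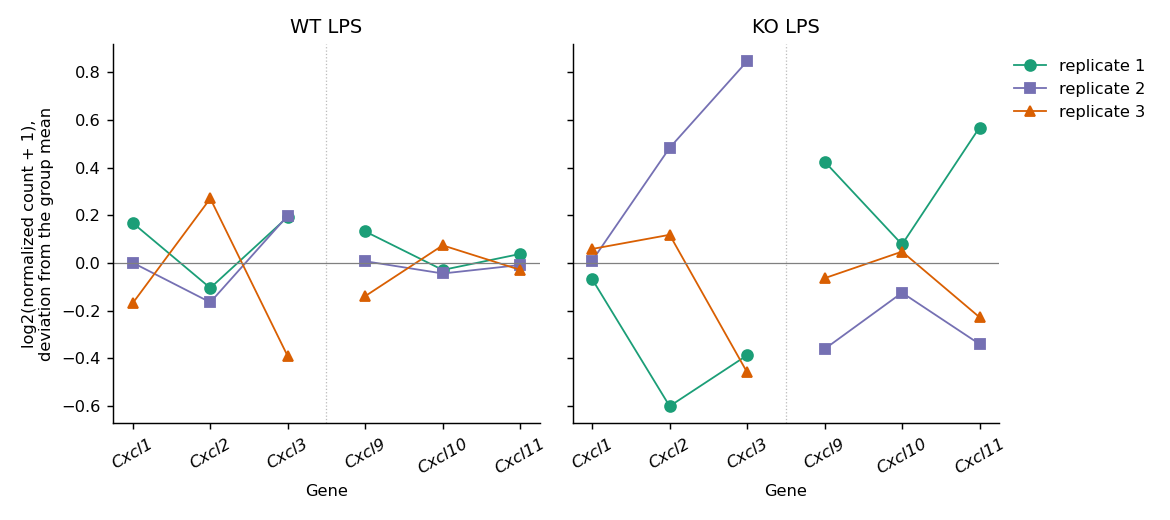
Deviation of log2(normalized count + 1) from the group mean (y axis) for ELR and interferon-induced genes (x axis) in LPS-treated WT (left) and KO (right) libraries, with 1 line per replicate. In KO, replicate 1 lies above the mean for *Cxcl9*, *Cxcl10* and *Cxcl11* and below it for *Cxcl1*, *Cxcl2* and *Cxcl3*, and replicate 2 lies below it for *Cxcl9*, *Cxcl10* and *Cxcl11* and above it for *Cxcl2* and *Cxcl3*.

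The genes whose pattern over the 12 libraries was most like that of *Cxcl10* were *Acod1*, the enzyme that makes itaconate, *Ptgs2*, a prostaglandin synthase, and *Cd69*, a leukocyte activation antigen. Their root mean square differences from it were 0.218, 0.265 and 0.280 on the centred log2 scale, among 12711 genes. The nearest to *Cxcl1* were *Ifi47*, an interferon-inducible GTPase, *Phf11b* and *Tcp10b*, at 0.330, 0.332 and 0.336.

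Receptors for these ligands were scarce or fell. *Cxcr3*, the receptor of *Cxcl9*, *Cxcl10* and *Cxcl11*, fell from 98.1 ± 23.6 to 31.5 ± 17.5 normalized counts in WT (SD, n = 3) and from 94.7 ± 29.7 to 28.8 ± 12.0 in KO, a log2 fold change of -1.71 in each. *Cxcr4*, best known as the receptor of *Cxcl12*, which is not a member, also fell, with log2 fold changes of -7.16 and -6.75. Before LPS, *Cxcr4* was lower in KO by a log2 difference of -0.61 (adjusted p = 0.0493 by limma), below 2-fold. *Cxcr2*, the ELR receptor, had 24 and 26 reads over the untreated WT and KO groups and 5 and 0 after LPS, and *Cxcr6*, the receptor of *Cxcl16*, had 16 reads in each untreated group and 16 and 11 after LPS. *Cxcr1*, *Cxcr5*, *Ackr1* and *Ackr3* had at most 19 reads over a group. Among CXC ligands outside the members, *Ppbp*, which lies between *Cxcl5* and *Pf4*, was tested. It had 34.3 ± 12.0 and 28.6 ± 7.20 normalized counts in untreated and LPS-treated WT and 47.2 ± 7.23 and 50.5 ± 6.92 in KO, a log2 difference between genotypes of 0.82 after LPS that did not pass (adjusted p = 0.248). *Cxcl12*, *Cxcl15* and *Cxcl17* had at most 9 reads over a group, and *Cxcl13* had none in any library, where a count of 0 allows up to 3 reads over a group.

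The pathways that control these genes moved with LPS in both genotypes and showed no call between them. All 11 NF-kB genes listed rose in WT and in KO, with median log2 fold changes of 3.93 and 4.19. *Nfkbiz*, an atypical IkB protein, rose by 6.07, *Nfkbia*, the main inhibitor of NF-kB, by 5.44 and *Tnfaip3*, the deubiquitinase A20, by 5.24 in WT. Of 13 interferon pathway genes, 12 rose in each genotype, and *Irf3*, which is activated by phosphorylation, missed the 2-fold threshold at -0.24 in WT and in KO. *Socs1*, a feedback inhibitor of JAK kinases, rose by 7.94, *Usp18* by 5.41, *Ifnb1*, interferon beta itself, by 4.97 and *Irf1* by 4.61 in WT. After LPS the differences between KO and WT ran from -0.14 to 0.14 for the NF-kB genes, and 0 of 13 interferon pathway genes and 0 of 11 NF-kB genes were called by limma, with 0 at an unadjusted p under 0.05 in either list. *Irf1* had a difference of 0.02. Before LPS, *Irf7* had a difference of -0.90 and *Usp18* of -0.73, neither of which passed. At that stage 0 of 12 and 0 of 11 genes were called by limma. An unadjusted p under 0.05 was found for 1 and 2 of them, against 1345 of 12461 genes tested. Of 8 genes that control AU-rich transcripts such as those of *Cxcl1* and *Cxcl2*, *Zc3h12a* (3.25), *Zfp36* (3.18) and *Traf3ip2* (1.65) rose and *Zfp36l1* (-4.92) and *Zfp36l2* (-1.79) fell in WT, the same 5 genes were called in KO, and 0 were called between genotypes by limma, with 0 at an unadjusted p under 0.05.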

How the data were processed

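Poly(A) RNA was sequenced in paired ends from 12 libraries. Per the study's methods and the submitters' notes, the authors used Trimmomatic (0.39) for trimming, STAR (2.7.4a) for alignment to GRCm38 and Subread (2.0.1) for counting. The deposited signal is a normalized count, for which the authors scaled each library by a size factor of DESeq2 (1.32.0). Dividing by the smallest value above 0 of each library gave whole reads for 100% of values (tolerance 1e-06), and depth and count tests used these reads. The main test was limma (3.58.1, R 4.3.3) with a trended variance on log2(normalized count + 1), fitted to the libraries of the groups compared and to all genes with a mean of at least 10, with Benjamini-Hochberg adjustment over all tested genes. Genes with an adjusted p under 0.05 were called if they also changed 2-fold or more, a condition that was dropped for the interaction. Fold changes are on that log2 scale and understate those of genes with few counts. The fits were tested on simulated data.

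Levels per kb use the union of exons in GENCODE, which holds 55141 of the 55487 gene models. The study's annotation release is another one, so gene models can differ. The alternatives changed the pseudocount to 0.5 or 5, lifted the count filter or raised it to 50, or used upper quartile scaling, no variance trend, the quasi-likelihood test of edgeR (4.0.16), DESeq2 (1.42.0), a replicate block, all 12 libraries in one fit, the adjusted p alone, and each library left out. A term for *Xist*, the libraries without *Xist*, scaling to total reads and the longest transcript were added after the values were seen. Replicate numbers of the labels pair untreated with LPS-treated libraries of a genotype, since same-numbered libraries deviate together (WT r = 0.33, 0.19, 0.24; KO r = 0.29, 0.28, 0.17). Between genotypes they do not (r = -0.03, -0.04 and 0.24 untreated, -0.20, -0.04 and 0.06 after LPS). The fits reported have no block, after the study's unpaired comparisons. The study calls the replicates biological, but the labels name no animals, and p-values measure the spread between these libraries.

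Members and gene lists were chosen with earlier results of these data known. All members, the targeted gene, measured receptors and other CXC ligands are named, with up to 4 called genes of each other list by size in WT and the 3 genes nearest in pattern to *Cxcl1* and *Cxcl10*. The genes added in the text after their values were seen are *Itgax*, *Xist*, *Irf7*, *Irf3*, *Adam10*, *Traf3ip2*, *Gm2673* and the markers *Adgre1*, *Itgam*, *Csf1r*, *Gp1bb* and *Ly6g*. Promoter windows are from RefSeq. Protein sequences were not used here.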

Additional observations from a re-analysis of the deposited data

How the results depend on the processing

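The counts of called members did not change with the pseudocount, filter, scaling by upper quartile, variance trend, edgeR, DESeq2 or the pooled fit, and changed between genotypes after LPS, where 0 became 1 (*Cxcl9*) with the adjusted p alone and without KO_LPS replicate 1, so leaving out 1 library gave 0 to 1. The replicate block gave 7 called members for LPS in WT, 7 in KO and 0 between genotypes in untreated cells, after LPS and in the interaction. Between genotypes after LPS it put *Cxcl9* at -0.86 (adjusted p = 0.0123 by limma). There, and in untreated cells, the block joins libraries by numbers that do not pair across genotypes. Its p-values and counts of calls between genotypes therefore add nothing to the fit reported. Scaling to total reads gave 8 and 7 for LPS, since *Cxcl14* was then called lower in WT, and turned *Pf4* to -0.29 in WT and -0.20 in KO and *Cxcl14* in KO to -0.56. Upper quartile scaling moved the median of all genes to 0.16 in WT and 0.17 in KO for LPS and changed no call of a member. The difference between the class medians stayed between 5.59 and 6.09 in WT and between 3.45 and 4.77 in KO with 1 library left out. With the longest spliced transcript the interferon-induced share was 0.615% and 0.745% in untreated WT and KO and 86.6% and 84.0% after LPS, against 0.466%, 0.561%, 82.9% and 79.7%. Without the libraries with *Xist*, *Cxcl2* and *Cxcl3* between genotypes after LPS turned to -0.036 and -0.18 and the interaction of *Cxcl11* to 0.71, and the interactions of *Cxcl9* and *Cxcl10* shrank to -0.0072 and -0.16. With 1 library left out, signs turned for values that were not called. The ranges were -0.050 to 0.35 for *Cxcl14* under LPS in KO (lowest -0.050 and -0.020), -0.33 to 0.14 for *Cxcl9* between untreated genotypes, -0.28 to 0.37 for *Cxcl3* (also -0.051) and -0.0024 to 0.11 for *Cxcl16* after LPS, and, for the interaction, -0.34 to 0.60 for *Cxcl3*, -1.32 to 0.085 for *Cxcl11* and -0.00802 to 0.10 for *Pf4*. The causes were not tested. Over all genes, calls between genotypes numbered 24 untreated and 29 after LPS in the fit reported. Untreated, they were 51 with DESeq2, 44 with the block, 67 by the adjusted p alone, 42 without a filter, 11 with a mean of at least 50, 2 without a trend and 6 without the libraries with *Xist*, and 4 to 26 with 1 library left out (4 without WT replicate 2, 5 without KO replicate 3, 6 without WT replicate 1, 11 without KO replicate 2). After LPS they were 5 without a trend, 102 by the adjusted p alone and 16 without the libraries with *Xist*, and 11 to 42 with 1 left out (11 without WT replicate 2, 15 without KO replicate 3). For LPS the adjusted p alone gave 9266 in WT and 9174 in KO against 4294 and 4309, and scaling to total reads moved the calls in KO from 2201 higher and 2108 lower to 1446 and 4621. The interaction called 1 gene, 23 with DESeq2, 6 with the block, 0 without the libraries with *Xist* and up to 3 with 1 left out. Depth limits *Cxcl5*, *Cxcl3*, *Cxcl11* and *Cxcl1* at rest, where groups had 1 to 35 reads.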
